A study of Schizosaccharomyces pombe with 24 samples.

Results

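Wild-type fission yeast (Schizosaccharomyces pombe) was compared between 2 h and 10 h after removal of nitrogen from the medium. The question is how expression moves on once the first hours of starvation have passed. The comparison used the libraries labelled wt at 2 h and at 10 h, 2 of each, which is 4 of the 24 libraries in the series. Both groups are the strain labelled wt (975 h+), a culture of the P mating type with no other allele named. The cells had grown at 32 °C in EMM, a defined minimal medium, with adenine, histidine, leucine, lysine and uracil at 225 ug/ml each. They were washed in EMM lacking nitrogen and left in it at 32 °C, so the groups differ in time only. No culture moved in the same way to medium with nitrogen was among the samples, so time without nitrogen cannot be told apart from time since the transfer or age of the culture. The same times in the strain labelled clr4D (975 h+ clr4D::NatMX6), in which a drug-resistance cassette is given as replacing clr4, whose product methylates histone H3, were used for 1 comparison. The series description calls its 2 replicates biological. The 4 h libraries of the wild type lie inside the interval but disagreed with each other, so they were not compared and are shown for context. They did enter the fit of all 24 libraries that gave the tests.

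Fission yeast that runs out of nitrogen divides without growing, stops in the G1 phase, and either mates with a partner of the opposite type or, where none is present, enters a quiescent state that can last for a long time. The shift turns down the TOR pathway that drives growth, switches on autophagy and uptake of alternative nitrogen sources, and for a while also activates the general stress response, which runs through the MAP kinase Sty1 and the transcription factor Atf1. The transcription factor Ste11, a target of the same starvation signals, turns on genes for mating and for entry into meiosis. A culture of a single mating type has no partner, so it normally stops short of meiosis.

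RNA was measured as reads per gene from rRNA-depleted, directional libraries, and levels are given as CPM, normalised read counts that give a gene's share of the reads on genes. Because CPM is a share, lower RNA per cell and fewer cells contributing cannot be told apart in these bulk samples. Gene reads came to 1746691 and 2494990 in the 2 h libraries and to 2277094 and 798482 in the 10 h libraries, so replicate 2 at 10 h was the shallowest and its low levels the least certain. Where no read was seen, up to 3 reads remain possible, or 1.72 and 1.20 CPM in the 2 h libraries and 1.32 and 3.76 CPM in the 10 h libraries. Pearson's r between replicates, across genes, was 0.989 at 2 h and 0.984 at 10 h, against 0.959 at 4 h. Reads aligned to several places, which no gene was credited with, were 5.61% and 5.55% of each library at 2 h and 6.96% and 7.36% at 10 h.

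The mating-type label was checked against marker genes. The P-cell genes map2 (the P-factor pheromone), map3 (the receptor for the pheromone of the other type) and map4 (an agglutinin), 3 of the 5 P-cell markers, summed to 199 and 251 CPM at 2 h and to 770 and 809 CPM at 10 h. Of the M-cell markers, mfm1, mfm2 and mfm3 (M-factor) and mam2 (the P-factor receptor) each stayed under 10 CPM in all 4 libraries. The marker mat1-Mc had 0 reads, which cannot tell the types apart. It was too low over all 24 libraries to be tested, although 8 M-cell genes summed to 9449 and 11039 CPM in clr4D at 10 h. The 7 tested of 9 M-cell markers summed to 196 and 254 CPM at 2 h and to 222 and 255 CPM at 10 h, most of it from mam1 and mam3. The 9 markers of meiosis and spores summed to 154 and 110 CPM at 2 h and to 130 and 140 CPM at 10 h, with no separation of the groups, and mei3 had 0 reads in 3 of the 4 libraries. The part of other cell types in the results was not tested. The clr4 gene itself stood at 114 and 107 CPM at 2 h and 108 and 126 CPM at 10 h, without a call (log2 difference 0.07 ± 0.23 SE, adjusted p = 0.859).

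At 10 h, 1539 of 5664 tested genes differed from 2 h at an adjusted p under 0.05 (27.2%). Of these, 761 were higher (13.4%) and 778 lower (13.7%), and the median log2 difference over all tested genes was 0.00. Changes of at least 2-fold were fewer, with 294 genes higher (5.19%) and 261 lower (4.61%), and 54 genes were at least 4-fold higher and 65 at least 4-fold lower. With library totals in place of TMM scaling the median over all genes moved to 0.17 and the split to 991 higher and 408 lower, so small differences depend on the scaling and changes are given relative to the TMM centre. With 1 of the 4 libraries left out, 730 to 1094 genes were called, fewest without replicate 1 of 10 h, and a call of a named gene that was lost in any of these fits is given as lost. Some genes belong to more than 1 list, so the counts of different lists are not all separate. Counts of list members in the full fit are to be read against the 13.4% and 13.7% of all tested genes. Those with 1 library left out are not, because calls over all tested genes fell in those fits too. Libraries of the groups did not overlap for 3876 genes (68.4% of those tested). With 2 libraries a group this is common, and for a single gene it is no sign of a change. The plot of level against difference shows where the ribosomal protein, stress and histone genes lie.

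**Figure D1:**
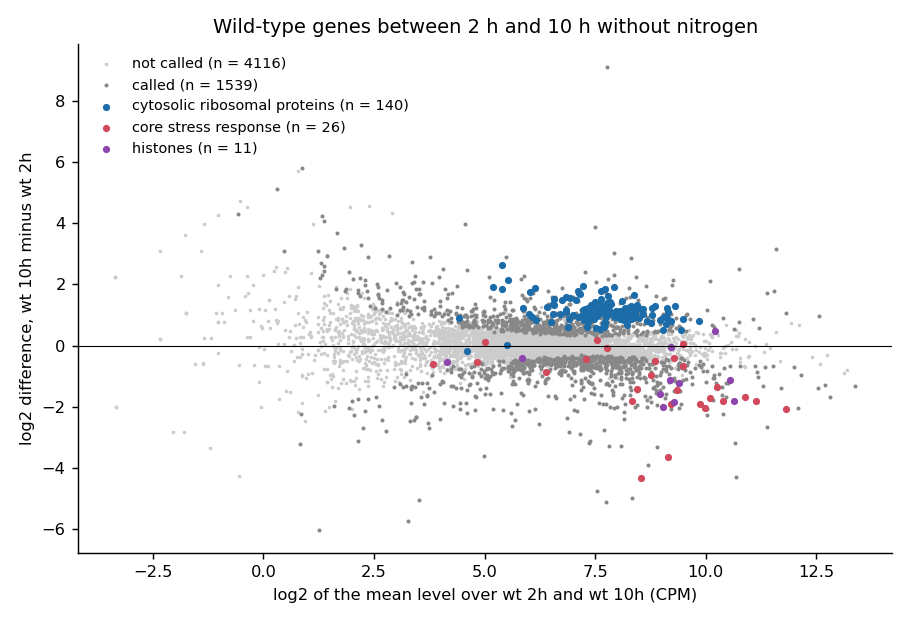
Each point is a gene, with the log2 of its mean CPM over wt 2h and wt 10h on the x axis and the fitted log2 difference, wt 10h minus wt 2h, on the y axis. Dark grey points are the 1539 genes called at an adjusted p under 0.05. Cytosolic ribosomal protein genes (blue, 140) lie mostly above 0, and core stress genes (red, 26) and histone genes (purple, 11) mostly below. The 9 tested genes without a read in the 4 libraries are not drawn.

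Genes for cytosolic ribosomal proteins made up the largest number of rises in any list. Of 140 cytosolic ribosomal protein genes, 114 were called higher at 10 h and none lower, beside 13.4% of all tested genes called higher, and their median log2 difference was 1.09. Of the 114, 86 rose by at least 2-fold. The 26 without a call ran from a log2 difference of -0.17 (rpp1) to 1.01 (rpl801). The gene with the largest rise, rpl3002, which encodes ribosomal protein eL30, read 15.6 and 9.11 CPM at 2 h and 79.7 and 63.03 CPM at 10 h, a 6.16-fold rise (log2 difference 2.62 ± 0.24 SE, adjusted p = 5.29e-08). Next came rpp101, for the stalk protein P1, at 17.96 and 15.8 CPM at 2 h and 72.99 and 78.5 CPM at 10 h (log2 2.16 ± 0.43, adjusted p = 0.00185). The gene rps2202, for uS8, read 67.2 and 56.6 CPM at 2 h and 259.8 and 211 CPM at 10 h (log2 1.95 ± 0.17, adjusted p = 1.65e-08). In all 3 the 10 h libraries lay at least 3-fold above the 2 h libraries.

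The rise was partial when set beside the growing culture. The median level of the ribosomal protein genes, on the log2 CPM scale, was 10.19 and 9.88 in the 0 h libraries, 7.01 and 6.66 at 1 h, 7.04 and 6.95 at 2 h, 8.25 and 8.02 at 10 h and 8.36 and 8.38 at 24 h. Both 10 h libraries therefore stood between the 2 h and the 0 h libraries. Many ribosomal protein genes have near-identical copies whose shared reads are not counted, and the share of such reads was higher at 10 h, so levels and folds of single copies are uncertain. The count of 114 also leaned on every library: it was 58 without replicate 1 of 2 h, 43 without replicate 2 of 2 h, 37 without replicate 1 of 10 h and 90 without replicate 2 of 10 h. The median log2 difference of the list stayed between 0.98 and 1.17 in these fits, and no member was called lower.

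Genes that build ribosomes rose less steeply. Of 93 ribosome biogenesis genes, 57 were higher and none lower, with a median log2 difference of 0.56 and 5 up by at least 2-fold. The count ran from 31 to 46 with 1 library left out. The pre-ribosome factor gene rlp7 read 128 and 104 CPM at 2 h and 309 and 281 CPM at 10 h (log2 1.36 ± 0.19, adjusted p = 1.59e-05). Rises were also called for bud20, a shuttling zinc finger protein of the large subunit precursor, with a log2 difference of 1.26 ± 0.17 SE, and gar1, a subunit of the pseudouridylation complex, with 1.07 ± 0.21. Of 30 genes for RNA polymerases I and III and their factors, 12 rose and 3 fell, and 4 to 8 rose with 1 library left out. The largest polymerase I subunit gene, nuc1, went from 273 and 287 CPM at 2 h to 541 and 534 CPM at 10 h (log2 0.94 ± 0.16, adjusted p = 8.40e-05). The gene rpa2, for the second largest, had a log2 difference of 0.82 ± 0.18. Those that fell were hmo1 (-0.80), spp27 (-0.62) and rpc53 (-0.57). With library totals 1 gene of the list was called lower, and the rpc53 call was lost without replicate 2 of 2 h, replicate 1 of 10 h or replicate 2 of 10 h (adjusted p = 0.062 to 0.079).

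Translation factor genes were called higher about as often as all tested genes, and lower less often. Of 55, 9 rose and 4 fell, beside 13.4% and 13.7% of all genes, with a median log2 difference of 0.20, and with library totals 23 rose and 1 fell. Leaving out any 1 library gave 1 to 6 rises. The RNA helicase gene tif1 (eIF4A) read 633 and 665 CPM at 2 h and 1451 and 1436 CPM at 10 h, a 2.22-fold rise (log2 1.15 ± 0.23, adjusted p = 7.37e-04). The elongation factor 2 gene eft202 had a log2 difference of 1.09 ± 0.24. The 4 that fell were hbs1 (ribosome rescue), tuf1 and mef1 (mitochondrial elongation) and tif452 (a second cap-binding protein), with log2 differences from -0.68 to -0.40. The eft202 call was lost without replicate 1 of 10 h (adjusted p = 0.054), that of hbs1 without replicate 1 of 10 h (adjusted p = 0.060), that of tif452 without replicate 2 of 2 h or replicate 1 of 10 h (adjusted p = 0.21 to 0.66) and that of tuf1 without replicate 1 of 2 h, replicate 1 of 10 h or replicate 2 of 10 h (adjusted p = 0.063 to 0.13). The mef1 call was lost in 3 of these 4 fits. Genes for mitochondrial ribosomal proteins did not join the rise. None of 75 was called higher, 5 were called lower, and their median was -0.11, or 0.06 with library totals, under which none was called. No call was made among 5 genes annotated as tRNA ligases, synthetases or their cofactors, whose log2 differences ran from -0.17 to 0.26.

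**Figure D2:**
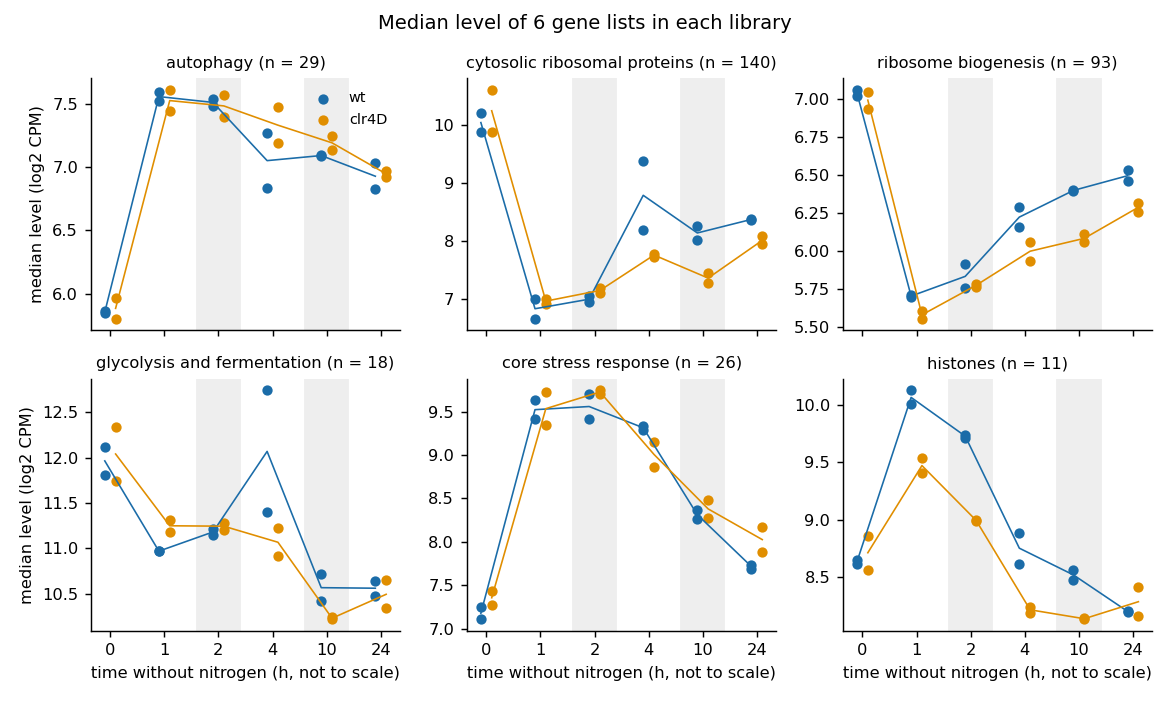
Median level of 6 gene lists in each library, on the log2 CPM scale, against hours without nitrogen (evenly spaced, not to scale). Points are libraries, blue for wt and orange for clr4D, lines join the means of 2 libraries, and grey bands mark 2 h and 10 h. Between the bands in wt, the medians of the ribosomal protein and ribosome biogenesis genes go up and those of the other 4 lists go down.

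Genes of the general stress response went the other way. Of 26 core stress genes tested, 18 were lower at 10 h and none higher, beside 13.7% of all tested genes called lower. The median log2 difference was -1.37, and 14 fell by at least 2-fold. The count of 18 was 16 or 17 with each library left out in turn. The calcium pump gene cta3 fell the most, from 926 and 478 CPM at 2 h to 33.4 and 37.6 CPM at 10 h (log2 difference -4.32 ± 0.49 SE, adjusted p = 1.48e-05). The stress-regulated gene rds1 read 1168 and 928 CPM at 2 h and 97.3 and 68.6 CPM at 10 h (log2 -3.62 ± 0.60, adjusted p = 5.63e-04). The gene hsp9, for a small heat shock protein, read 6128 and 5517 CPM at 2 h and 1483 and 1302 CPM at 10 h (log2 -2.06 ± 0.23, adjusted p = 6.47e-07). In each of the 3 genes the lower 2 h library lay more than 3-fold above the higher 10 h library.

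The remaining called members included genes for antioxidant enzymes (gpx1, ctt1, gst2, gst3, tpx1), trehalose turnover (tps1, ntp1, tpp1) and glycerol synthesis (gpd1), with log2 differences from -2.03 (ish1) to -0.43 (uvi15, a call lost in 3 of the 4 fits with a library left out). The transcription factor genes of the pathway fell less, pcr1 with a log2 difference of -0.87 ± 0.14 SE and atf1 with -0.51 ± 0.19, and the atf1 call was lost with any 1 library left out (adjusted p = 0.082 to 0.23). The kinase genes sty1 and wis1 had log2 differences of -0.06 and 0.19 and no call. Over the whole time course the stress median was 7.11 and 7.25 at 0 h on the log2 CPM scale, 9.63 and 9.42 at 1 h, 9.71 and 9.41 at 2 h, 8.36 and 8.26 at 10 h and 7.74 and 7.69 at 24 h. The 10 h libraries thus stood below the early libraries and above those of the growing culture.

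Of 19 chaperone genes, 4 fell, 1 rose and 14 were not called, beside 13.7% of all tested genes called lower and 13.4% higher. The disaggregase gene hsp104 read 1134 and 1049.9 CPM at 2 h and 283 and 301 CPM at 10 h (log2 -1.91 ± 0.19, adjusted p = 1.39e-07). The J-domain gene psi1 read 364 and 314 CPM at 2 h and 93.4 and 86.3 CPM at 10 h (log2 -1.90 ± 0.17, adjusted p = 4.86e-08). Another fall was in ssa1, for an Hsp70, with a log2 difference of -1.20 ± 0.20 SE. Higher was pss1, for another Hsp70 family protein (0.55 ± 0.19), a call lost with any 1 library left out (adjusted p = 0.084 to 0.16). The Hsp90 gene had a log2 difference of 0.01 and no call.

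The single largest rise belonged to psu2, which encodes a cell wall glucosidase of the SUN family. It had 3 reads over both 2 h libraries and 1416 over both 10 h libraries, or 0.579 and 0.792 CPM at 2 h and 385 and 482 CPM at 10 h. The ratio was 581, with an exact binomial 95% interval of 199 to 2822 that covers counting error only (adjusted p = 1.65e-08). Both 10 h libraries were thus far above both 2 h libraries, and the 24 h libraries, at 1013 and 1199 CPM, were higher still. The gene overlaps mpi1 and a non-coding RNA on the opposite strand, and the strand setting of the counting is not given in the sources used here.

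Several large rises were in transporter genes. The phosphate transporter gene pho84 went from 516 and 734 CPM at 2 h to 5606 and 5508 CPM at 10 h, an 8.88-fold rise (log2 difference 3.15 ± 0.35 SE, adjusted p = 6.23e-07). SPBC409.08, annotated as a spermine family transporter, read 55.05 and 49.9 CPM at 2 h and 434 and 426 CPM at 10 h, an 8.22-fold rise (log2 3.04 ± 0.58, adjusted p = 0.00176). The peptide transporter gene ptr2 read 411 and 617 CPM at 2 h and 2681 and 3214 CPM at 10 h, a 5.72-fold rise (log2 2.52 ± 0.32, adjusted p = 9.04e-06). It overlaps bbl1 on the opposite strand. Copper uptake was represented by ctr4, a subunit of the copper transporter, at 8.69 and 5.94 CPM at 2 h and 36.5 and 45.3 CPM at 10 h (log2 2.47 ± 0.45, adjusted p = 3.13e-04). All of these 10 h values lay at least 4-fold above every 2 h value.

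Other large rises were in genes annotated as regulators. The F-box protein gene pof15 read 13.9 and 30.5 CPM at 2 h and 354 and 329.6 CPM at 10 h, a 14.7-fold rise (log2 3.88 ± 0.67, adjusted p = 0.00101). SPAC2H10.01, annotated as a transcription factor, read 9.27 and 11.5 CPM at 2 h and 81.2 and 77.4 CPM at 10 h (log2 2.91 ± 0.78, adjusted p = 0.0145), although its call was lost without replicate 1 of 2 h, replicate 2 of 2 h or replicate 1 of 10 h (adjusted p = 0.078 to 0.096). The kinase gene oca2 read 44.6 and 51.5 CPM at 2 h and 241 and 279.8 CPM at 10 h (log2 2.42 ± 0.44, adjusted p = 0.00119).

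The largest falls included several metabolic enzymes. SPAC4H3.08, annotated as a 3-hydroxyacyl-CoA dehydrogenase, went from 434 and 393 CPM at 2 h to 11.4 and 13.3 CPM at 10 h, a 34.3-fold drop (log2 difference -5.10 ± 0.53 SE, adjusted p = 8.52e-06). SPAPB1A11.03, annotated as an L-lactate dehydrogenase, read 671 and 586 CPM at 2 h and 22.4 and 15.5 CPM at 10 h, a 31.2-fold drop (log2 -4.96 ± 0.54, adjusted p = 1.62e-05). The Con-6 family gene SPAC11D3.01c read 3529.8 and 2705 CPM at 2 h and 169 and 152 CPM at 10 h, a 19.4-fold drop (log2 -4.28 ± 0.41, adjusted p = 6.23e-07). The groups were far apart in all 3, with each 10 h library more than 10-fold below each 2 h library.

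A neighbouring pair of uncharacterized genes fell together. SPAPJ695.02 read 328 and 388 CPM at 2 h and 10.6 and 19.9 CPM at 10 h (log2 -4.74 ± 0.34, adjusted p = 5.97e-08). The gene SPAPJ695.01c had 84 reads over the 2 h libraries and 1 over the 10 h libraries, a ratio of 68.2 with an exact 95% interval of 11.9 to 2726. The arylsulfatase gene SPBPB10D8.02c had 91 and 2 reads, a ratio of 36.9 with an interval of 9.94 to 309.7. The remaining large falls ran from log2 -3.89 (SPAC27D7.11c, a But2 family protein) to -3.17 (ddr48). The gene cum1, which overlaps iss1 on the opposite strand, read 999.5 and 737 CPM at 2 h and 69.9 and 112 CPM at 10 h. SPBC725.03, annotated as a pyridoxamine phosphate oxidase, read 532 and 458 CPM at 2 h and 51.4 and 50.9 CPM at 10 h. The D-glutamate cyclase gene dgc1 went from 483 and 339 CPM at 2 h to 42.4 and 42.02 CPM at 10 h. Also in this range were SPBC1685.12c (-3.62), rds1 and rtc3 (-3.19). Libraries that do not overlap between the groups were a condition for naming the largest falls, so this adds nothing about them. The genes ddr48 and dgc1 overlap genes on the opposite strand.

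**Figure D3:**
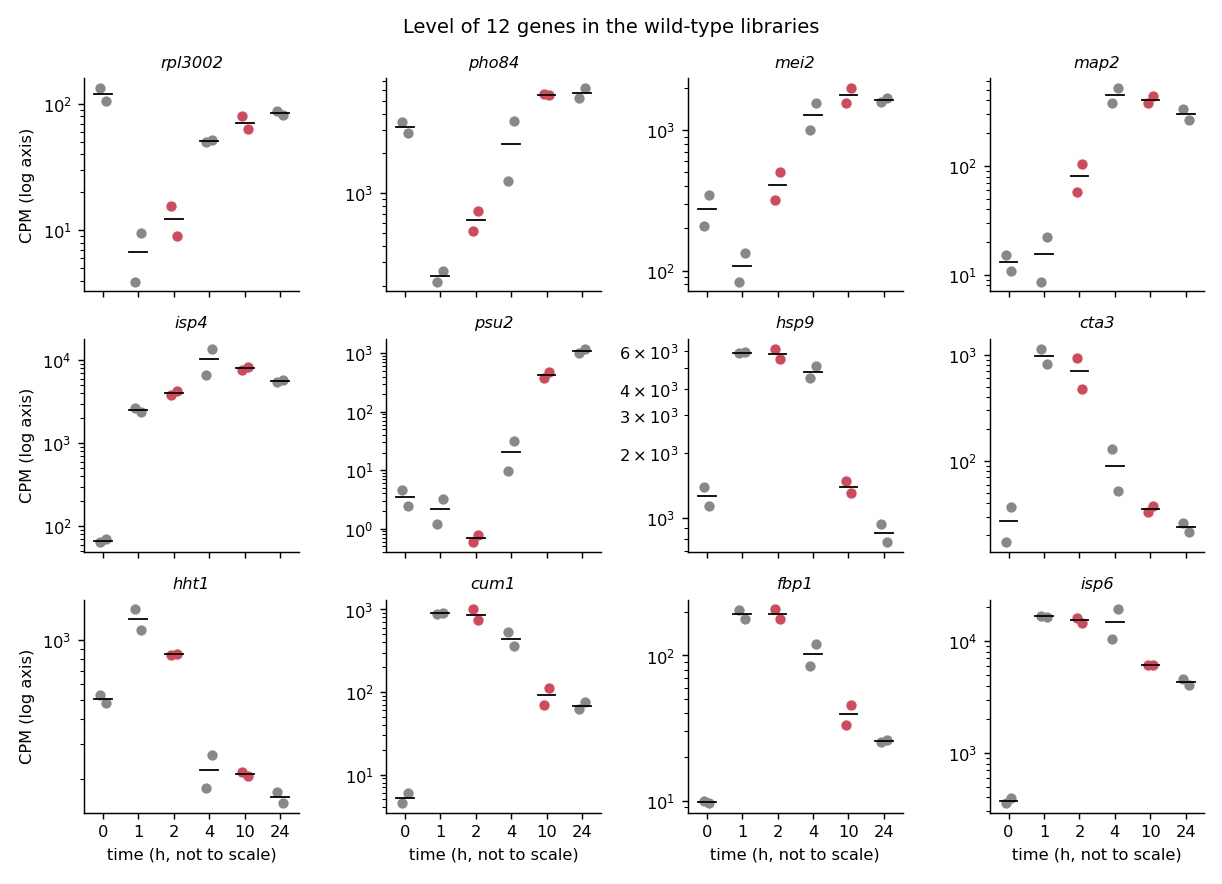
CPM (log axis) of 12 genes in each wild-type library against hours without nitrogen (evenly spaced, not to scale). Points are libraries, red at 2 h and 10 h and grey otherwise, and bars are means of 2 libraries. The genes of the upper row, isp4 and psu2 lie higher at 10 h than at 2 h, and hsp9, cta3 and the genes of the bottom row lie lower.

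Among genes that supply nitrogen, calls for transporters and permeases were mostly rises and calls for proteases and salvage enzymes were falls. Of 16 genes for nitrogen transporters and permeases, 7 rose and 1 fell, beside 13.4% of all genes called higher and 13.7% lower, with a median log2 difference of 0.32. Beside ptr2, the oligopeptide transporter gene isp4 read 3842 and 4229.9 CPM at 2 h and 7663 and 8313 CPM at 10 h (log2 0.98 ± 0.26, adjusted p = 0.00599). The uracil transporter gene fur4 read 408 and 368 CPM at 2 h and 815 and 789.6 CPM at 10 h (log2 1.05 ± 0.17, adjusted p = 7.23e-05). The isp4 call was lost without replicate 1 of 2 h (adjusted p = 0.066), and the count of rises ran from 3 to 7 with 1 library left out. The amino acid permease gene isp5 rose with a log2 difference of 0.57 ± 0.17 SE, a call lost without replicate 1 of 2 h, replicate 2 of 2 h or replicate 1 of 10 h (adjusted p = 0.069 to 0.13). The ammonium transporter gene amt1 read 1093 and 1063 CPM at 2 h and 1708 and 1741 CPM at 10 h and missed the call (log2 0.68 ± 0.28, adjusted p = 0.0750). The genes put4 (proline uptake) and fnx1 (vacuolar amino acid transport) had log2 differences of 0.23 and -0.36 without a call. The member that fell, agp3, an amino acid transporter gene, read 148 and 118 CPM at 2 h and 88.7 and 81.8 CPM at 10 h (log2 -0.62 ± 0.18, adjusted p = 0.0117), a call lost without replicate 1 of 2 h, replicate 1 of 10 h or replicate 2 of 10 h (adjusted p = 0.063 to 0.15).

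Of 18 genes for proteases and nitrogen salvage enzymes, 6 fell and none rose, beside 13.7% of all genes called lower. The falls numbered 3 to 5 with 1 library left out. The vacuolar serine protease gene isp6, among the best known genes induced by nitrogen starvation, read 16244 and 14379 CPM at 2 h and 6107 and 6059 CPM at 10 h, a 2.52-fold drop (log2 difference -1.33 ± 0.27 SE, adjusted p = 6.77e-04). Its 0 h libraries read 356 and 394 CPM, so the 10 h level was still well above the growing culture. The uricase gene uro1 read 779 and 815 CPM at 2 h and 332 and 362 CPM at 10 h (log2 -1.20 ± 0.26, adjusted p = 0.00116). The gene psp3, another serine protease gene, read 1049 and 1017 CPM at 2 h and 624 and 516 CPM at 10 h (log2 -0.85 ± 0.16, adjusted p = 4.47e-04). The other 3 that fell were gdh1 and gdh2, for glutamate dehydrogenases, and the aminopeptidase gene ape2. The ape2 call was lost with any 1 library left out, that of gdh1 in 3 of the 4 fits and that of gdh2 in 2.

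Of 29 autophagy genes, 12 fell and 1 rose, with a median log2 difference of -0.36 and none changed by 2-fold. Under library totals 1 fell and 2 rose, so the count rests on the scaling, and without replicate 1 of 10 h it was 2. The sorting nexin gene atg20 fell from 134 and 137 CPM at 2 h to 74.95 and 82.9 CPM at 10 h (log2 -0.80 ± 0.14, adjusted p = 1.52e-04). The gene atg6, for the beclin of the lipid kinase complex, read 73.6 and 69.7 CPM at 2 h and 41.2 and 40.9 CPM at 10 h (log2 -0.80 ± 0.18, adjusted p = 0.00214). The gene for the membrane-anchored marker of autophagosomes, atg8, had a log2 difference of -0.68 ± 0.24 SE (adjusted p = 0.0430), a call lost with any 1 library left out (adjusted p = 0.073 to 0.22). The gene of the initiating kinase, atg1, had -0.32 ± 0.18 without a call. The member that rose, atg12, a ubiquitin-like modifier gene, read 18.5 and 16.2 CPM at 2 h and 36.5 and 26.5 CPM at 10 h (log2 0.93 ± 0.24, adjusted p = 0.00608). Its call was lost without replicate 2 of 2 h or replicate 1 of 10 h (adjusted p = 0.076 to 0.27), and that of atg6 without replicate 1 of 10 h (adjusted p = 0.053).

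Neighbouring genes of the SPAC869 cluster near a chromosome end moved apart. Of 11, 2 rose and 4 fell, and the same counts were called with each library left out. SPAC869.04, annotated as formamidase-like, read 1202 and 1488 CPM at 2 h and 4760.5 and 4541 CPM at 10 h, a 3.46-fold rise (log2 1.79 ± 0.24, adjusted p = 8.60e-06). The urea transporter gene SPAC869.03c read 1081 and 1394 CPM at 2 h and 4521 and 3647 CPM at 10 h (log2 1.72 ± 0.21, adjusted p = 2.21e-06). SPAC869.09, a Con-6 family gene, instead read 359 and 243 CPM at 2 h and 40.4 and 23.2 CPM at 10 h, an 8.66-fold drop (log2 -3.11 ± 0.56, adjusted p = 0.00120). The gene hry1, for a cation-binding protein, read 230.0 and 196 CPM at 2 h and 32.96 and 24.3 CPM at 10 h (log2 -2.81 ± 0.55, adjusted p = 0.00199). The methyltransferase gene pcm2 and the galactosidase gene mel1 also fell, with log2 differences of -1.13 and -0.72.

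Genes in several branches of carbon metabolism fell. Of 18 glycolysis and fermentation genes, 7 fell and none rose, beside 13.7% of all genes called lower, 6 of the 7 fell at least 2-fold, and the median log2 difference was -0.67. The count was 4 without replicate 2 of 10 h and 5 to 7 without another library. The enolase gene eno102 read 374 and 354 CPM at 2 h and 54.2 and 54.2 CPM at 10 h, a 6.71-fold drop (log2 difference -2.75 ± 0.30 SE, adjusted p = 5.17e-06). Its libraries hardly varied within a group. The glyceraldehyde phosphate dehydrogenase gene tdh1 read 4813 and 4877 CPM at 2 h and 2225 and 1459 CPM at 10 h (log2 -1.39 ± 0.31, adjusted p = 0.00158). The phosphoglycerate kinase gene pgk1 read 9026 and 8095 CPM at 2 h and 3858 and 2697 CPM at 10 h (log2 -1.38 ± 0.34, adjusted p = 0.00419). The alcohol dehydrogenase gene adh1 read 9588 and 9235 CPM at 2 h and 4328 and 3368 CPM at 10 h (log2 -1.29 ± 0.31, adjusted p = 0.00306). The adh1 call was lost without replicate 2 of 10 h (adjusted p = 0.051) and that of pgk1 without replicate 2 of 10 h (adjusted p = 0.069). In tdh1, pgk1 and adh1 replicate 2 of 10 h was the lower of the pair. The aldolase gene fba1, at 11383 and 12008 CPM at 2 h and 6416 and 6105 CPM at 10 h, missed the call in this fit (log2 -0.90 ± 0.36, adjusted p = 0.0648).

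Sugar transport and gluconeogenesis genes moved both ways, with 6 of 15 lower and 2 higher. The fructose bisphosphatase gene fbp1, a gluconeogenic gene repressed by glucose, fell from 207 and 177 CPM at 2 h to 33.4 and 45.3 CPM at 10 h, a 5.12-fold drop (log2 -2.36 ± 0.34, adjusted p = 1.09e-04). The gluconate transporter gene ght3 read 35.9 and 43.5 CPM at 2 h and 8.24 and 9.95 CPM at 10 h (log2 -2.19 ± 0.26, adjusted p = 1.51e-06). The gene gpd1, already counted with the core stress genes, read 3655 and 3317 CPM at 2 h and 1077 and 891 CPM at 10 h (log2 -1.82 ± 0.27, adjusted p = 1.83e-05). The hexose transporter genes that rose were ght8 and ght5. The gene ght8 read 194 and 171 CPM at 2 h and 425 and 467 CPM at 10 h (log2 1.29 ± 0.28, adjusted p = 0.00268). The gene ght5, for the high-affinity glucose transporter, read 169 and 157 CPM at 2 h and 267 and 252 CPM at 10 h (log2 0.68 ± 0.20, adjusted p = 0.0128), a call lost without replicate 1 of 2 h, replicate 2 of 2 h or replicate 1 of 10 h (adjusted p = 0.051 to 0.11).

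Calls in mitochondrial energy metabolism were also mostly falls. Of 17 TCA cycle genes, 7 fell and none rose, and leaving out 1 library gave 3 or 4 falls. The malate dehydrogenase gene mdh1 read 636 and 601 CPM at 2 h and 292 and 269.8 CPM at 10 h (log2 -1.13 ± 0.18, adjusted p = 6.05e-05). The succinate-CoA ligase gene lsc2 read 556 and 491 CPM at 2 h and 261 and 248 CPM at 10 h (log2 -1.04 ± 0.15, adjusted p = 1.28e-05). Among 40 genes for the respiratory chain and ATP synthase, 9 fell and 1 rose, the falls including atp1 and nde1, each with a log2 difference of -0.72 ± 0.20 SE. With 1 library left out, 1 to 4 of the respiratory genes were called lower, and the atp1 call was lost without replicate 1 of 2 h or replicate 1 of 10 h (adjusted p = 0.070 to 0.11) and that of nde1 without replicate 1 of 2 h or replicate 1 of 10 h (adjusted p = 0.091 to 0.098). The member that rose, the assembly factor gene cmc2, was low, at 1.74 and 1.98 CPM at 2 h and 7.06 and 8.85 CPM at 10 h.

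Genes for the proteasome, the vacuolar ATPase and lipid synthesis showed small falls whose counts depend on the scaling. Of 44 proteasome genes, 18 fell and 2 rose, with a median log2 difference of -0.39, and under library totals 2 fell and 2 rose. The falls numbered 10 to 12 with 1 library left out. The core particle genes pre1, pre9 and pre8 had log2 differences of -0.84, -0.77 and -0.66. Of 16 vacuolar ATPase genes, 6 fell (2 under library totals and 2 to 4 with 1 library left out), the largest being vma1, from 885 and 784 CPM at 2 h to 533 and 506 CPM at 10 h (log2 -0.68 ± 0.16, adjusted p = 0.00282). Among 26 sterol and fatty acid synthesis genes, 6 fell and none rose, and under library totals 3 fell and 2 rose. The sterol methyltransferase gene erg6 read 657 and 603 CPM at 2 h and 329 and 303 CPM at 10 h (log2 -0.99 ± 0.15, adjusted p = 2.73e-05). The fatty acid synthase gene fas2 had a log2 difference of -0.85 ± 0.22, a call lost without replicate 1 of 2 h or replicate 1 of 10 h (adjusted p = 0.053 to 0.067). With 1 library left out, 1 to 3 of the 26 were called.

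**Figure D4:**
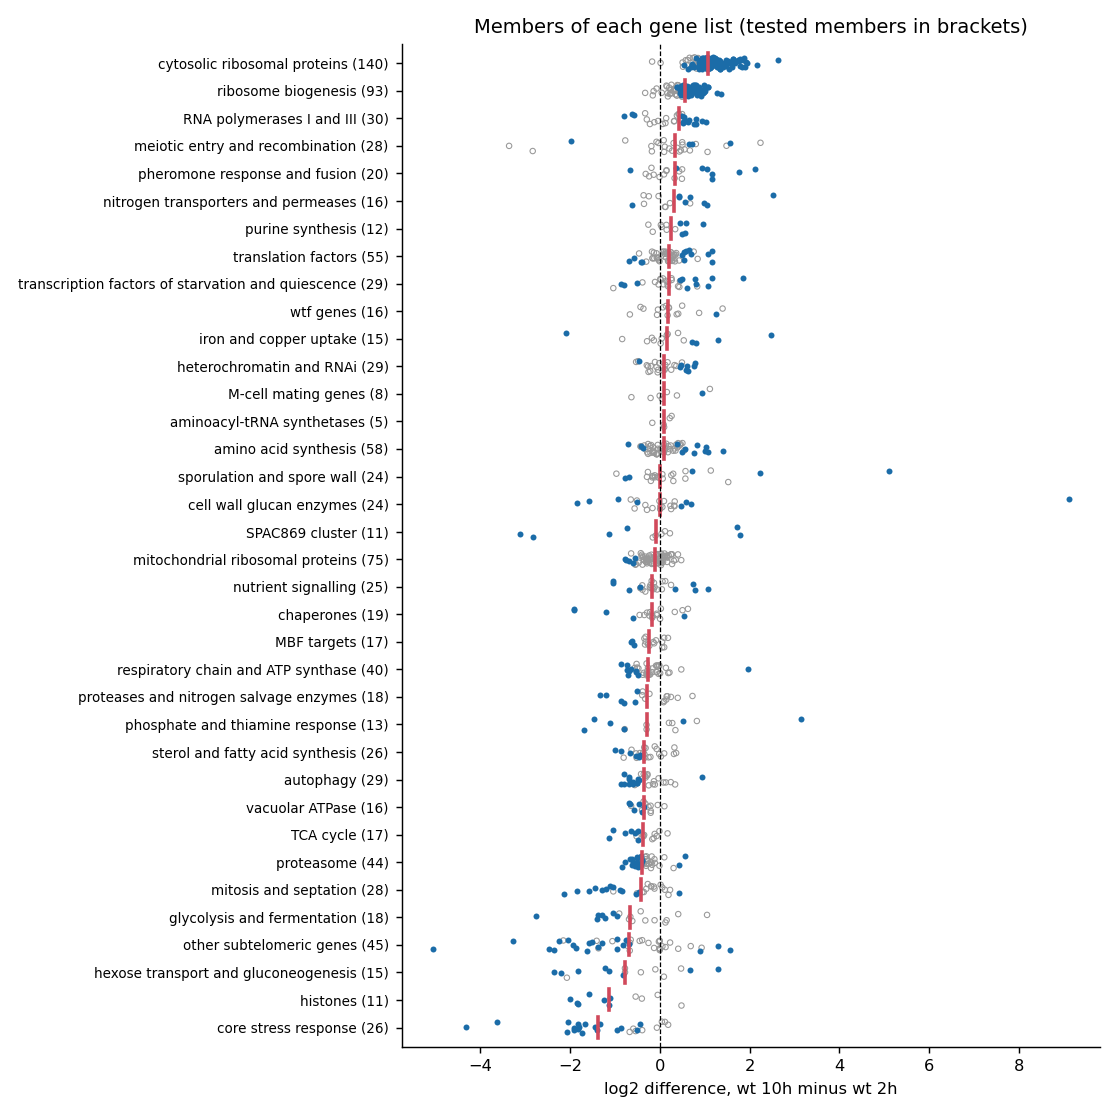
Fitted log2 difference, wt 10h minus wt 2h, of every tested member of each gene list with at least 5 tested members. Filled blue points are called at an adjusted p under 0.05, open grey points are not, red bars are list medians, and the dashed line is the median over all 5664 genes. Ribosomal protein and ribosome biogenesis genes lie furthest to the right, and core stress genes and histones furthest to the left.

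Most histone genes, which are normally expressed in step with DNA replication, fell. Of 11, 7 were called lower and none higher, each of the 7 by at least 2-fold, and the median log2 difference was -1.12. The same count was called with each library left out. The histone H3 gene hht1 read 838 and 852 CPM at 2 h and 215 and 206 CPM at 10 h, a 4.01-fold drop (log2 difference -2.003 ± 0.17 SE, adjusted p = 2.03e-08). Its divergent partner hhf1, for histone H4, read 971 and 990.1 CPM at 2 h and 297 and 243 CPM at 10 h (log2 -1.85 ± 0.18, adjusted p = 7.20e-08). The H2B gene htb1 read 2604 and 2348 CPM at 2 h and 735 and 662 CPM at 10 h (log2 -1.82 ± 0.19, adjusted p = 2.61e-07). The other 4 called were hhf3, hht3, hta1 and hta2, with log2 differences from -1.58 to -1.12. The remaining H3 and H4 pair, hht2 and hhf2, had 0.48 and -0.05 and no call, and the genes for the centromeric variant cnp1 and the H2A variant pht1 had -0.54 and -0.40. The H3 and H4 genes are near-identical copies, so reads shared between them were not counted.

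Histone levels had been high early in starvation. On the log2 CPM scale their median was 8.65 and 8.62 at 0 h, 10.12 and 10.00 at 1 h, 9.71 and 9.74 at 2 h and 8.47 and 8.56 at 10 h. Other genes of the S phase programme moved little. Of 17 targets of the MBF transcription factor, 3 fell, cdt2, suc22 and dut1, with log2 differences from -0.65 to -0.57, and none did so under library totals. The suc22 call was lost without replicate 1 of 2 h or replicate 2 of 10 h (adjusted p = 0.051 to 0.057) and that of dut1 without replicate 1 of 2 h, replicate 2 of 2 h or replicate 1 of 10 h (adjusted p = 0.067 to 0.26). The ribonucleotide reductase gene cdc22, a classic member, read 754 and 705 CPM at 2 h and 772 and 792 CPM at 10 h without a call.

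Genes for cell separation, the last step of division, were lower. Of 28 mitosis and septation genes, 12 fell and 1 rose, 8 of them at least 2-fold down. The glucanase gene eng1, whose product dissolves the septum, read 694 and 669 CPM at 2 h and 168 and 216 CPM at 10 h (log2 -1.85 ± 0.44, adjusted p = 0.00701). Its partner gene agn1, for the outer cell wall, read 275 and 258 CPM at 2 h and 85.2 and 96.2 CPM at 10 h (log2 -1.57 ± 0.30, adjusted p = 0.00120). The largest fall was in adg1, at 101 and 101 CPM at 2 h and 16.9 and 36.5 CPM at 10 h (log2 -2.13 ± 0.43, adjusted p = 0.00199). In these 3 genes the ratio between the 10 h libraries was larger than that between the 2 h libraries. Other genes that fell were cfh4, adg2, adg3, mid2, slp1, chs2, sid2, klp5 and fin1. At least 1 fit with a library left out lost the calls of adg2, adg3, mid2, slp1, klp5 and fin1. Without replicate 1 of 10 h 4 genes of the list were called lower. The eng1 call was lost without replicate 1 of 10 h (adjusted p = 0.087) and the adg1 call without replicate 1 of 10 h (adjusted p = 0.10). The mitotic cyclin gene cdc13 had a log2 difference of -0.30 ± 0.14 SE and no call. The member that rose was klp6, a kinesin gene (0.43 ± 0.15), with a call lost with any 1 library left out (adjusted p = 0.094 to 0.16).

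Of 23 genes for cell wall glucan enzymes, 3 rose and 4 fell, with 2 or 3 rises and 1 to 3 falls when 1 library was left out. The list also held pwp1, annotated as a WD repeat gene, which was left out of these counts after the data had been seen (with it, 4 of 24 rose). Beside psu2, rises were called for 2 glucan synthase genes. The gene bgs3 read 397 and 371 CPM at 2 h and 627 and 619 CPM at 10 h (log2 0.70 ± 0.14, adjusted p = 7.24e-04). The gene bgs1 read 508 and 513 CPM at 2 h and 735 and 804 CPM at 10 h (log2 0.59 ± 0.16, adjusted p = 0.00900). The falls were exg3, ecm33 and, already counted with the septation genes, eng1 and agn1. The gene ecm33 read 1708 and 1584 CPM at 2 h and 772 and 969 CPM at 10 h (log2 -0.92 ± 0.25, adjusted p = 0.00851). The ecm33 call was lost without replicate 1 of 2 h or replicate 1 of 10 h (adjusted p = 0.057 to 0.13) and that of bgs1 without replicate 1 of 2 h, replicate 2 of 2 h or replicate 2 of 10 h (adjusted p = 0.059 to 0.072). The exg3 call was lost with any 1 library left out.

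In the P-cell branch of mating, 2 genes rose. The P-factor gene map2 read 57.9 and 105 CPM at 2 h and 377 and 438 CPM at 10 h, a 4.91-fold rise (log2 difference 2.30 ± 0.28 SE, adjusted p = 2.95e-06). The gene map3, for the receptor of M-factor, read 99.1 and 98.2 CPM at 2 h and 349 and 307 CPM at 10 h, a 3.34-fold rise (log2 1.74 ± 0.26, adjusted p = 3.52e-05). In both genes the 10 h libraries were far above the 2 h libraries, although map3 overlaps his6 on the opposite strand. The other P-cell genes, map1 and map4, had log2 differences of 0.66 and 0.19 without a call. Among 8 M-cell genes only mam4, a methyltransferase gene that processes the M-factor, was called higher, at 12.2 and 23.8 CPM at 2 h and 32.96 and 43.1 CPM at 10 h (log2 0.95 ± 0.26, adjusted p = 0.00925). That call was lost without replicate 1 of 2 h or replicate 2 of 10 h (adjusted p = 0.060 to 0.13).

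Of 20 genes of the pheromone response and cell fusion, 7 rose and 1 fell, with 4 or 5 rises when 1 library was left out. The gene for Mei2, the RNA-binding protein that commits cells to meiosis once its inhibitor kinase is off, read 320.4 and 499.6 CPM at 2 h and 1574 and 1993 CPM at 10 h, a 4.34-fold rise (log2 difference 2.12 ± 0.33 SE, adjusted p = 5.90e-05). The Ras activator gene ste6 read 31.3 and 46.3 CPM at 2 h and 138 and 132 CPM at 10 h (log2 1.77 ± 0.18, adjusted p = 2.14e-07). The master regulator gene ste11 read 140.2 and 206 CPM at 2 h and 364 and 415 CPM at 10 h (log2 1.16 ± 0.34, adjusted p = 0.0177). Its call was lost without replicate 1 of 2 h, replicate 1 of 10 h or replicate 2 of 10 h (adjusted p = 0.061 to 0.15). Also higher were shk2, dni2, rgs1 and gpa1, with log2 differences from 0.36 to 1.15. The gene for the kinase Byr2 fell from 78.8 and 90.3 CPM at 2 h to 58.1 and 45.3 CPM at 10 h (log2 -0.66 ± 0.18, adjusted p = 0.00934), a call lost without replicate 2 of 2 h or replicate 2 of 10 h (adjusted p = 0.073 to 0.10). The gpa1 call was lost with any 1 library left out and that of dni2 in 3 of the 4 fits.

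Meiotic genes were called no more often than all tested genes. Of 28 tested genes for meiotic entry and recombination, 3 rose and 1 fell, and of 24 for sporulation and spore walls, 3 rose and 2 fell, beside 13.4% of all genes called higher and 13.7% lower. Expression of mcp7, a recombination gene, went from 27.8 and 31.7 CPM at 2 h to 91.4 and 86.3 CPM at 10 h (log2 1.57 ± 0.19, adjusted p = 1.17e-06). The genes num1 (dynein anchoring) and rec25 had log2 differences of 0.72 and 0.65. The gene for the chromosome axis protein Hop1 fell from 9.27 and 11.1 CPM at 2 h to 3.14 and 1.11 CPM at 10 h (log2 -1.97 ± 0.50, adjusted p = 0.00538). Its call was lost without replicate 2 of 2 h (adjusted p = 0.052), and that of rec25 without replicate 1 of 2 h, replicate 2 of 2 h or replicate 1 of 10 h (adjusted p = 0.094 to 0.46). The meiotic inducer gene mei3 had 3 reads over the 2 h libraries and 0 over the 10 h libraries, and rec15 had 2 and 0, which gives no fold. The forkhead factor gene mei4 read 39.4 and 19.002 CPM at 2 h and 36.9 and 39.8 CPM at 10 h, without a call.

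In the sporulation list, the septin gene spn6 read 9.27 and 13.5 CPM at 2 h and 50.2 and 64.1 CPM at 10 h (log2 2.23 ± 0.33, adjusted p = 3.75e-05). It overlaps dcr1 on the opposite strand. The kinase gene mug27 had 0 reads at 2 h and 9 at 10 h, at least 3.69-fold higher against a floor of 3 reads over the group, with a call lost without replicate 1 of 2 h, replicate 2 of 2 h or replicate 1 of 10 h (adjusted p = 0.065 to 0.14). The chitin synthase gene chs1 rose with a log2 difference of 0.72 ± 0.14 SE. The falls were cda1 (-0.77) and spo20 (-0.69). The spore protein gene isp3 read 19.7 and 14.3 CPM at 2 h and 15.3 and 17.7 CPM at 10 h, with no separation of the groups.

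Among regulators, transcription factor genes of starvation gave 8 rises and 3 falls of 29. The GATA factor gene fil1 read 2240.0 and 2415 CPM at 2 h and 4932 and 4878 CPM at 10 h (log2 1.08 ± 0.24, adjusted p = 0.00148). The gene gaf1, for the GATA factor that works below TOR, read 381 and 362 CPM at 2 h and 598 and 678 CPM at 10 h (log2 0.78 ± 0.17, adjusted p = 0.00171). Low but higher at 10 h was rsv1, at 0 and 2.77 CPM at 2 h and 6.28 and 5.53 CPM at 10 h, with a call lost without replicate 1 of 2 h, replicate 1 of 10 h or replicate 2 of 10 h (adjusted p = 0.079 to 0.29). The falls were rsv2 and, already counted with the core stress genes, pcr1 and atf1. The gene rsv2 had a log2 difference of -0.80 ± 0.23 SE. Its call was lost without replicate 2 of 2 h or replicate 1 of 10 h (log2 -0.74 to -0.68). With 1 library left out, 2 to 4 genes of the list were called higher.

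Nutrient signalling genes gave 4 rises and 4 falls of 25, shares near the 13.4% and 13.7% of all genes. The catalytic subunit gene of the cAMP-dependent kinase, pka1, read 508 and 540.0 CPM at 2 h and 244 and 264 CPM at 10 h (log2 -1.05 ± 0.20, adjusted p = 3.46e-04). Its regulatory subunit gene, cgs1, read 499 and 488 CPM at 2 h and 231 and 248 CPM at 10 h (log2 -1.05 ± 0.13, adjusted p = 3.81e-06). The libraries of the groups did not overlap in either subunit gene, as held for 68.4% of all tested genes. The AMPK catalytic subunit gene ssp2 had a log2 difference of -0.68 ± 0.13 SE, and the S6 kinase family gene sck2 one of 0.74 ± 0.16. The TOR kinase gene tor1 read 494 and 442 CPM at 2 h and 499.9 and 466 CPM at 10 h, and tor2 read 786 and 799 CPM at 2 h and 729.9 and 714 CPM at 10 h. Neither was called, and the tor1 libraries of the groups overlapped.

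Heterochromatin and RNAi genes changed by small amounts. Of 29, 7 rose and 1 fell, none by 2-fold, beside 13.4% of all genes called higher. The rises numbered 1 to 4 with 1 library left out. The argonaute gene ago1 read 113 and 127 CPM at 2 h and 157 and 174 CPM at 10 h (log2 0.45 ± 0.12, adjusted p = 0.00962). The gene chp2, for an HP1 family protein, read 20.9 and 20.98 CPM at 2 h and 40.8 and 27.6 CPM at 10 h (log2 0.79 ± 0.26, adjusted p = 0.0245). The nuclease gene eri1 and dsh1 had log2 differences of 0.76 and 0.63, and dsh1 overlaps cdc13 on the opposite strand. The gene for the other HP1 protein, swi6, fell from 83.4 and 101 CPM at 2 h to 62.8 and 76.3 CPM at 10 h (log2 -0.45 ± 0.16, adjusted p = 0.0374), a call lost without replicate 2 of 2 h or replicate 1 of 10 h (adjusted p = 0.33 to 0.44). The ago1 call was lost without replicate 1 of 2 h or replicate 2 of 10 h (adjusted p = 0.074 to 0.10), that of chp2 without replicate 1 of 2 h, replicate 2 of 2 h or replicate 1 of 10 h (adjusted p = 0.091 to 0.54), that of eri1 without replicate 2 of 2 h or replicate 1 of 10 h (adjusted p = 0.18 to 0.45) and that of dsh1 without replicate 2 of 2 h (adjusted p = 0.067).

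Phosphate and thiamine genes moved both ways. Of 13, 2 rose and 4 fell. The thiazole synthesis gene thi2 read 12781 and 8922 CPM at 2 h and 3395 and 3397 CPM at 10 h (log2 -1.68 ± 0.28, adjusted p = 1.00e-04). The thiamine-repressible phosphatase gene pho4 read 739 and 742 CPM at 2 h and 311 and 221 CPM at 10 h (log2 -1.46 ± 0.19, adjusted p = 4.37e-06). The vitamin B6 carrier gene bsu1 read 386 and 459 CPM at 2 h and 226 and 164 CPM at 10 h (log2 -1.10 ± 0.18, adjusted p = 7.52e-05). All 3 genes had both 10 h libraries well below the 2 h libraries. The phosphate regulator gene pho7 rose from 127 and 135 CPM at 2 h to 175 and 208 CPM at 10 h (log2 0.52 ± 0.16, adjusted p = 0.0159), a call lost without replicate 1 of 2 h, replicate 2 of 2 h or replicate 2 of 10 h (adjusted p = 0.061 to 0.13). Iron and copper genes gave 4 rises and 1 fall of 15, and 1 to 4 rises with 1 library left out. The siderophore transporter gene str1 read 26.7 and 24.9 CPM at 2 h and 68.7 and 53.1 CPM at 10 h (log2 1.29 ± 0.34, adjusted p = 0.00934). The iron-responsive repressor gene php4 had a log2 difference of 0.81 ± 0.21 SE. The str1 call was lost without replicate 2 of 2 h or replicate 1 of 10 h (adjusted p = 0.076 to 0.18) and that of php4 without replicate 2 of 2 h or replicate 1 of 10 h (adjusted p = 0.092 to 0.25). The siderophore synthesis gene sib2 fell from 126 and 104 CPM at 2 h to 28.6 and 23.2 CPM at 10 h (log2 -2.08 ± 0.17, adjusted p = 8.64e-09), while fio1, an iron transport oxidase gene, had a log2 difference of 0.04 ± 0.19 and no call.

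Amino acid synthesis genes were called higher about as often as all tested genes, and lower less often. Of 58 amino acid synthesis genes, 9 rose and 3 fell, beside 13.4% of all genes called higher and 13.7% lower. The median log2 difference was 0.09. The rises numbered 3 or 4 with 1 library left out and 19 under library totals. The sulfate adenylyltransferase gene sua1 read 232 and 223 CPM at 2 h and 458 and 508 CPM at 10 h (log2 1.08 ± 0.34, adjusted p = 0.0233). The adenylylsulfate kinase gene met14 read 61.998 and 58.2 CPM at 2 h and 123 and 123 CPM at 10 h (log2 1.04 ± 0.16, adjusted p = 3.17e-05). The homocysteine synthase gene met17 read 32.4 and 30.9 CPM at 2 h and 70.2 and 55.3 CPM at 10 h (log2 1.02 ± 0.28, adjusted p = 0.00982). In these 3 genes the libraries of the groups did not overlap, as held for 68.4% of all tested genes. The largest was lys4, for the first step of lysine synthesis, at 141 and 150.4 CPM at 2 h and 388 and 383 CPM at 10 h (log2 1.40 ± 0.22, adjusted p = 4.34e-05). The call of sua1 was lost with any 1 library left out (adjusted p = 0.076 to 0.11) and that of met17 without replicate 2 of 2 h or replicate 1 of 10 h (adjusted p = 0.078 to 0.18). The falls were ser1 (-0.70), his4 (-0.41) and met11 (-0.37). The his4 call was lost with any 1 library left out (adjusted p = 0.094 to 0.13) and that of met11 with any 1 library left out (adjusted p = 0.078 to 0.21). Of 12 purine synthesis genes, 5 rose and none fell, beside 13.4% of all genes called higher. The trifunctional folate enzyme gene ade9 read 102 and 103 CPM at 2 h and 197 and 205 CPM at 10 h (log2 0.96 ± 0.14, adjusted p = 1.29e-05). The genes ade6, ade8, ade4 and gua2 had log2 differences from 0.45 to 0.59. With 1 library left out, 1 or 2 of the 12 were called, ade6 being lost without replicate 1 of 2 h, replicate 1 of 10 h or replicate 2 of 10 h (adjusted p = 0.069 to 0.20) and ade8 without replicate 2 of 2 h or replicate 1 of 10 h (adjusted p = 0.086 to 0.26). The calls of ade4 and gua2 were lost with any 1 library left out.

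Other subtelomeric genes leaned down. Of 96, 45 passed the filter on low counts, 18 of those fell and 3 rose, and the filter keeps a gene that is high in any group, so the 45 do not stand for all 96. Of those that rose, SPBPB2B2.05, annotated as a glutamine amidotransferase family gene, read 24.3 and 38.8 CPM at 2 h and 88.3 and 107 CPM at 10 h (log2 1.56 ± 0.20, adjusted p = 4.04e-06). The gene nrg1, annotated as an amino acid permease gene, read 906 and 975 CPM at 2 h and 1653 and 1873 CPM at 10 h (log2 0.91 ± 0.17, adjusted p = 2.93e-04). Besides SPBPB10D8.02c and dgc1, falls included SPAC186.02c, a hydroxyacid dehydrogenase gene, at 16.2 and 16.6 CPM at 2 h and 2.35 and 4.42 CPM at 10 h, and the galactose genes gal1 and gal7, with log2 differences of -1.62 and -1.57. The SPAC186.02c call was lost without replicate 1 of 10 h (adjusted p = 0.18), and 11 to 16 of the list fell with 1 library left out. Of 13 Tf2 retrotransposons only 2 had enough unique reads to be tested, and neither was called. Tf2-7 read 3.48 and 4.35 CPM at 2 h and 7.85 and 8.85 CPM at 10 h, and Tf2-11 read 3.48 and 2.77 CPM at 2 h and 5.49 and 5.53 CPM at 10 h. Their copies are near-identical, so most of their reads could not be counted. Of 16 wtf genes, wtf11 rose from 5.79 and 7.52 CPM at 2 h to 17.7 and 13.3 CPM at 10 h (log2 1.25 ± 0.31, adjusted p = 0.00465), a call lost without replicate 1 of 10 h (adjusted p = 0.22).

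Long non-coding RNAs were called higher more often than lower. Of 675 tested, 101 were higher and 44 lower, with a median log2 difference of 0.29, against 656 and 728 of 4944 coding genes with a median of -0.02. Over all tested genes 13.4% were called higher and 13.7% lower, so by this count the lncRNAs departed more in the share called lower. With a change of at least 2-fold, 85 of the 675 were called higher and 39 lower, beside 5.19% and 4.61% of all tested genes. By that count they departed more in the share called higher. Of 1382 lncRNAs only these 675 passed the filter on low counts, which keeps a gene that is high in any group. Reads outside all features were 2.72% and 2.52% of each library at 2 h and 4.42% and 3.23% at 10 h, and their part in these counts was not tested. The lncRNA omt3, annotated as forming foci in meiosis, read 56.8 and 93.4 CPM at 2 h and 592 and 521 CPM at 10 h, a 7.33-fold rise (log2 difference 2.87 ± 0.33 SE, adjusted p = 8.52e-06). SPNCRNA.1374 read 2.90 and 2.38 CPM at 2 h and 36.9 and 51.98 CPM at 10 h (log2 3.99 ± 0.44, adjusted p = 6.10e-07). It overlaps cta3 on the opposite strand, and that gene fell over the same interval. Further rises were SPNCRNA.936 (2.93), SPNCRNA.1164 (2.73) and SPNCRNA.708 (2.29), in log2. SPNCRNA.860, whose identifier had no match in the annotation, read 2.90 and 3.17 CPM at 2 h and 20.8 and 27.6 CPM at 10 h.

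The largest falls among lncRNAs were smaller. SPNCRNA.990 read 10.4 and 13.9 CPM at 2 h and 1.96 and 1.11 CPM at 10 h (log2 -2.78 ± 0.52, adjusted p = 3.49e-04). The gene SPNCRNA.448 read 9.85 and 12.3 CPM at 2 h and 2.35 and 1.11 CPM at 10 h (log2 -2.44 ± 0.50, adjusted p = 7.77e-04). SPNCRNA.1565, SPNCRNA.1453 and SPNCRNA.1665 had log2 differences from -2.42 to -2.19. These 5 were named on the condition that both 10 h libraries lay below both 2 h libraries. The SPNCRNA.1453 call was lost without replicate 1 of 10 h (adjusted p = 0.053). All but SPNCRNA.448 overlap a coding gene on the opposite strand.

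Whether these changes differed in the strain labelled clr4D was tested directly, as the wild-type change from 2 h to 10 h minus the change in that strain. The label calls for a caveat first, because the libraries labelled clr4D also carried clr4 reads, 146 and 117 CPM at 2 h and 129.6 and 128 CPM at 10 h, against the levels in wt of 114 and 107 CPM at 2 h and 108 and 126 CPM at 10 h. The gene overlaps meu6 on the opposite strand. The groups also differed before the interval began: the P-factor receptor gene mam2, an M-cell marker, stood at 561 and 536 CPM in the clr4D libraries at 2 h and at 4.64 and 4.75 CPM in wt. Directions between strains are therefore those between libraries as labelled.

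In the clr4D libraries 1659 genes were called between 2 h and 10 h (29.3%), 766 higher (13.5%) and 893 lower (15.8%). In both strains 770 genes were called, 760 of them in the same direction. The difference between the changes was called for 306 genes (5.4%), 109 with a more positive change in wt (1.92%) and 197 with a more negative one (3.48%). Of the 306, 188 were called in clr4D and not in wt, 70 in wt and not in clr4D, 35 in both the same way, 10 in both the opposite way and 3 in neither. The number was 561 without the discordant 4 h libraries of wt, 300 of them positive, and 660 with only the 8 compared libraries, 374 of them positive, so the balance of signs turns with the libraries fitted. It was 108 to 318 with 1 library left out. For the great majority of genes no difference between the strains was called, which does not show that they changed alike.

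Among gene groups, 8 of 140 ribosomal protein genes had a called difference, all more positive in wt. Over all tested genes the shares were 5.4% in either direction and 1.92% positive. In wt 114 of the 140 were called higher and in clr4D 5, but a call in 1 strain alone is not a called difference. The medians of the log2 difference were 1.09 in wt and 0.20 in clr4D. The called rps2202 had changes of 1.95 in wt and 0.61 in clr4D (difference 1.34 ± 0.24 SE, adjusted p = 0.00129). Core stress genes, in contrast, fell in both strains, 18 of 26 in wt and 17 in clr4D, with medians of -1.37 and -1.48 and 1 called difference.

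The list with the largest share of called differences, beside 5.4% of all tested genes, was that for meiotic entry and recombination. In it 24 of 28 were called higher in clr4D against 3 in wt, and 17 differences were called negative and 1 positive, the positive one in mcp7, whose call was lost with any 1 of the 8 libraries left out (adjusted p = 0.067 to 0.17). In the sporulation list 19 of 24 were higher in clr4D against 3 in wt, with 11 negative differences. The spore protein gene isp3 went from 20.6 and 17.3 CPM to 11784 and 5429 CPM in clr4D while wt stayed at 15.3 and 17.7 CPM at 10 h (difference -8.89 ± 0.70 SE, adjusted p = 1.06e-07). The gene hop1 moved in opposite directions, with 16.3 and 22.1 CPM rising to 83.2 and 82.7 CPM in clr4D (difference -4.04 ± 0.57 SE, adjusted p = 9.24e-05). The isp3 and hop1 differences kept their calls with each library left out.

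Some genes outside meiosis also changed in opposite directions. The gluconate transporter gene ght3 fell 4.57-fold in wt and rose in clr4D from 44.5 and 50.4 CPM to 204 and 144 CPM (difference -4.06 ± 0.32 SE, adjusted p = 1.13e-08). The replication licensing regulator gene cdt2 fell in wt (-0.65) and rose in clr4D (0.63; difference -1.27 ± 0.22 SE, adjusted p = 6.70e-04). The histone gene hht1 fell in both, by more in wt, with log2 differences of -2.003 and -0.71 (difference -1.29 ± 0.24 SE, adjusted p = 0.00195). Its 2 h level was lower in clr4D, 367 and 314 CPM against 838 and 852 CPM, and the 10 h libraries of the strains overlapped, 217 and 196 CPM against 215 and 206 CPM. The septum gene agn1 fell in wt and was not called in clr4D (0.24; difference -1.81 ± 0.42 SE, adjusted p = 0.0180), and the same held for fbp1 (-0.49; difference -1.87 ± 0.45 SE, adjusted p = 0.0250). With 1 of the 8 libraries left out, the agn1 difference lost its call in 4 of 8 fits (adjusted p = 0.057 to 0.11) and that of fbp1 in 5 of 8 fits (adjusted p = 0.056 to 0.20).

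In the lists for nitrogen transport and amino acid synthesis the called differences were positive. Differences were called positive for 4 of 16 nitrogen transporter genes and 4 of 58 amino acid synthesis genes, and none negative. Over all tested genes 1.92% were called positive and 3.48% negative. The uracil transporter gene fur4 rose in wt and had a log2 difference of 0.19 in clr4D (difference 0.86 ± 0.24 SE, adjusted p = 0.0379). Differences were also called for met14 (0.93 ± 0.25 SE, adjusted p = 0.0255), ade8 (0.90 ± 0.24 SE, adjusted p = 0.0258) and nrg1 (0.98 ± 0.24 SE, adjusted p = 0.0156). The proline transporter gene put4 did not change by the test in wt and fell in clr4D, from 1356 and 1125 CPM to 726 and 835 CPM (difference 0.90 ± 0.24 SE, adjusted p = 0.0315). These differences are small and near the threshold. With 1 of the 8 libraries left out their sizes moved little where the call was lost, from 0.72 to 0.99 for fur4, 0.70 to 0.98 for met14 and 0.89 to 1.03 for nrg1, and the call was lost in 7 of 8 fits (adjusted p = 0.063 to 0.21) for fur4, in 6 of 8 fits (adjusted p = 0.055 to 0.28) for met14, in 6 of 8 fits (adjusted p = 0.062 to 0.20) for ade8, in 5 of 8 fits (adjusted p = 0.060 to 0.089) for nrg1 and in 7 of 8 fits (adjusted p = 0.050 to 0.17) for put4.

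**Figure D5:**
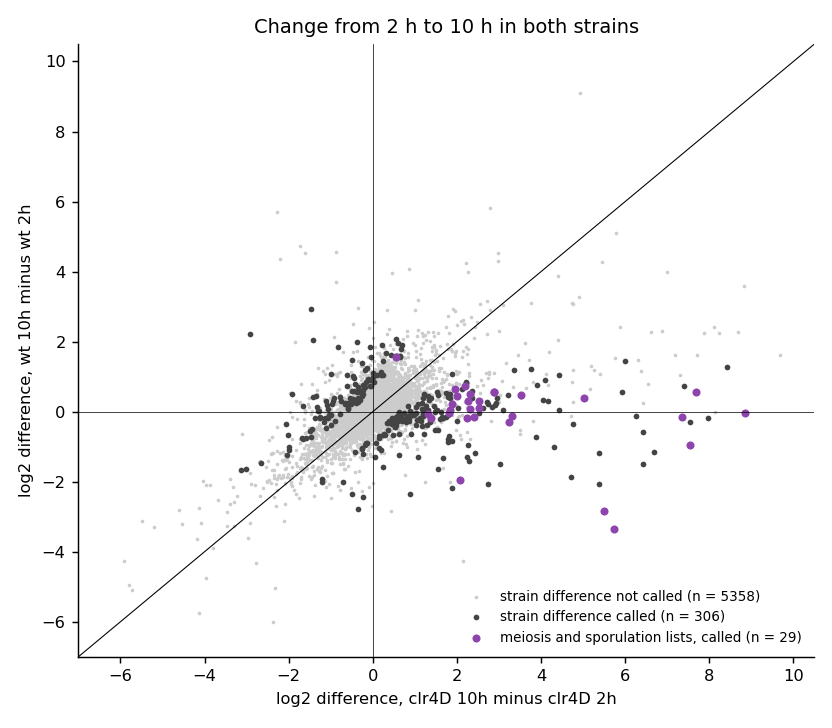
Each point is a gene, with its fitted log2 difference from 2 h to 10 h in clr4D on the x axis and in wt on the y axis; the diagonal marks equal change. Black and purple points are the 306 genes whose change differed between the strains, purple for the 29 of them in the lists for meiosis and sporulation. Most purple points lie to the right, near 0 in wt.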

How the data were processed

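The deposited files hold, per library, raw read counts for each gene, which the authors made with TopHat2 version 2.0.8 and HTSeq version 0.6.1 on the genome build ASM294v2, per the submitters' processing notes. The annotation release and the strand setting of the counting were not stated in any label or header used here. Hot-phenol RNA was cleared of DNA with DNase I and depleted of rRNA before directional library construction, per the labels' protocols. The files list 6878 features, of which 6877 name a gene, and the rows without a gene (reads with no feature, ambiguous or aligned to several places) were kept out of library sizes and tests. Reads with no feature were 2.17% to 4.42% of the wild-type libraries at 0 h, 2 h and 10 h.

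Counts were scaled by TMM and filtered with filterByExpr, which left 5664 genes (1213 removed). All 24 libraries were fitted as 12 group means with edgeR version 4.0.16 in R version 4.3.3, by its quasi-likelihood test with robust estimates. The contrasts were wt 10h minus wt 2h and that change minus the change in clr4D. Adjusted p-values are Benjamini-Hochberg values over all tested genes, two-sided, and a gene is called at an adjusted p under 0.05. Each SE is the size of the log2 difference divided by the square root of its F statistic. CPM levels use TMM-scaled library sizes and are not per length, so levels were not compared between genes. With 2 libraries a group the spread is shared over all groups (12 residual degrees of freedom), and p-values measure the spread between samples. Intervals and floors cover counting error only. The procedure was also run on simulated counts with known changes, whose levels and spread were taken from these data. The outcome of that run is not given here.

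The groups come from the labels' strain and time. The gene lists and comparisons were chosen with earlier results of these data known. Genes are named by a rule: the 15 largest called rises and falls (mean of at least 10 CPM in 1 of the groups, libraries not overlapping), the 5 largest such lncRNAs each way, the 3 largest called members of each list each way, the 8 largest strain differences each way, and landmark genes. Other members named for a count were chosen after their values were seen. Names and products came from RefSeq's table for ASM294v3, which matched 6705 of 6877 genes, and since that build differs no coordinates are given. Promoter motifs were planned and not analysed here. Alternatives were other scalings and filters, fewer libraries, a replicate block, DESeq2 version 1.42.0, limma-voom (limma version 3.58.1), and leaving out each library.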

Additional observations from a re-analysis of the deposited data

Results flagged for a closer look

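All but the last of these results were singled out because the change from 2 h to 10 h differed between wt and the clr4D-labelled libraries in the test of the difference itself (log2 change in wt minus that in clr4D, adjusted p under 0.05), and no explanation was tested. Meiotic genes differed the most, with mei3 at -9.08, isp3 at -8.89, meu17 at -8.52, rec15 at -8.32, meu3 at -8.16, meu19 at -7.93, crp79 at -7.85 and meu25 at -7.83. In wt these genes stayed low at both times, so the values rest on rises in clr4D and, for mei3, rec15 and others near 0 reads in wt, their size depends on the fit's prior count. Smaller negative differences were seen for hop1 (-4.04), mei4 (-1.56), num1 (-1.46), rec25 (-1.31) and the M-cell gene mam2 (-1.45). The last was already high in clr4D at 2 h.

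Outside meiosis, negative differences were called for ght3 (-4.06), fbp1 (-1.87), agn1 (-1.81), hht1 (-1.29), cdt2 (-1.27), ssa1 (-0.98), SPNCRNA.990 (-2.44) and SPNCRNA.448 (-2.21). Positive ones were called for cmc2 (2.34), thi2 (1.45), rps2202 (1.34), mcp7 (1.03), nrg1 (0.98), met14 (0.93), put4 (0.90), ade8 (0.90) and fur4 (0.86).  The largest positive differences among genes with at least 10 CPM were mostly non-coding: SPNCRNA.1091 (3.48), SPNCRNA.178 (2.67), SPNCRNA.972 (2.05), SPNCRNA.1574 (1.96), SPNCRNA.1525 (1.91) and SPNCRNA.1381 (1.86), beside hsp3105 (2.44) and SPAC29B12.13 (1.81). SPNCRNA.1381 overlaps the M-factor gene mfm3 on the opposite strand, and SPNCRNA.1091 overlaps put4.

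Many of these calls depend on which libraries are fitted. Over the 8 fits that leave out 1 library, the call was lost in 8 for cmc2, mcp7, ssa1 and mam2, in 7 for rec15, SPNCRNA.448, SPNCRNA.972, SPNCRNA.1574, fur4 and put4, in 6 for thi2, met14, ade8, SPNCRNA.990 and SPNCRNA.1381, in 5 for meu17, rec25, fbp1, nrg1, SPNCRNA.178 and SPNCRNA.1525, in 4 for mei4 and agn1, in 3 for mei3 and hsp3105, in 2 for SPNCRNA.1091 and in 1 for meu3 and SPAC29B12.13. Where they were lost, the adjusted p was 0.050 to 0.17 for rec15, 0.054 to 0.41 for meu17 and 0.052 to 0.9999 for mei3, with a difference down to -5.73. The calls of isp3, meu19, crp79, meu25, hop1, num1, ght3, hht1, cdt2 and rps2202 held in all 8.

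Reads outside all annotated features were above the level of the growing culture at 10 h, with 4.42% in replicate 1 and 3.23% in replicate 2, against 2.27% and 2.17% at 0 h.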

How the results depend on the processing

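The 175 named genes with a call kept their direction in every alternative that gave them a value, and 108 kept the call with each library left out. Library totals gave 408 genes lower at 10 h. For the strain difference, fits on only the compared libraries gave 660 genes (374 positive), and fits without both 4 h libraries of wt gave 561 (300 positive). Leaving out 1 library gave 730 to 1094 genes between 2 h and 10 h, 334 to 542 higher and 396 to 552 lower, and 108 to 318 for the strain difference, 21 to 91 positive and 87 to 227 negative. DESeq2 called 1162 genes between 2 h and 10 h, limma-voom 1613, and only the 4 compared libraries 2111. The fit without both 4 h libraries of wt called 1792, against 1539 with them. Every gene called both there and in the main fit had the same direction.

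The fit with a replicate block called 1721 genes, and 414 for the strain difference, 170 of them positive. The sources do not state whether same-numbered libraries belong together. Across 5083 genes their deviations from the group means correlated weakly, at 0.0716 to 0.136, and the block lost no call of a named gene. Signs turned only for genes without a call, under library totals for isp3 (0.12), tor2 (0.036) and SPAC869.01 (0.026), and with limma-voom for meu3 (0.19). With 1 library left out the log2 difference ran through 0 for isp3 (-0.29 to 0.18), meu17 (-1.50 to 0.0050), meu3 (-0.76 to 1.52), crp79 (-5.51 to 0.15), clr4 (-0.027 to 0.20), mei4 (-0.057 to 0.99), tor1 (-0.031 to 0.13), SPAC869.01 (-0.32 to 0.052) and fio1 (-0.0072 to 0.11). The cause of these shifts was not tested. The lowest depth, 798482 gene reads in replicate 2 of 10 h, limits genes under about 10 CPM.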

Other observations

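Some of the large changes were in genes that lie next to each other. In 9 places at least 3 genes in a row along a chromosome, counting tested genes only, were called in the same direction with at least a 2-fold change. On chromosome 2, 6 neighbours fell together, SPBPB21E7.02c, SPBPB21E7.10, SPBPB21E7.11, cmt2, aes1 and SPNCRNA.1305. The gluconate transporter gene ght3 fell with SPAPJ695.02, SPAPJ695.01c and SPNCRNA.603, and fbp1 fell with fbp1-ot3, wwm3 and wwm2. In the upward direction mei2 rose with SPNCRNA.993, omt3 and omt2, and rps2201 rose with rpc11 and fsh2. The histone genes hht3 and hhf3 fell with SPNCRNA.1611 between them. With 1 of the 4 libraries left out, at least 1 fit lost the call of SPBPB21E7.10, cmt2, SPNCRNA.1305, SPNCRNA.603, fbp1-ot3, SPNCRNA.993, omt2 and rpc11, and all 4 lost that of rps2201. Without replicate 1 of 10 h the log2 difference of rpc11 was 0.75 (adjusted p = 0.19). How many such runs chance gives was not tested.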
